A study of Mus musculus with 6 samples.

Results

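The genes described here are 10 Kruppel-like factors, Klf2, Klf3, Klf4, Klf6, Klf7, Klf9, Klf10, Klf13, Klf15 and Klf16. They were chosen by name, all 10 were found among the 27378 genes listed, and all 10 passed the filter on low values, a mean of at least 1 FPKM over the libraries. FPKM is a fragment count scaled to the length of the gene and the depth of the library. Expression was measured by RNA sequencing of whole brain from wild-type male C57BL/6J mice, an inbred laboratory strain. The control group, 3 libraries, received sterile distilled water through the nose for 28 days. The PS group, also 3 libraries, received polystyrene nanoplastics, a particle pollutant, by that route and for as long. Neither the animals' age nor the particle dose is given in the sources used here, and the labels leave unsaid whether the 3 libraries of a group are 3 mice. The p-values therefore weigh the groups against a spread that may be partly technical.

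Kruppel-like factors are transcription factors that bind GC-rich and CACCC-type DNA elements through zinc fingers at their C-terminal end. Their N-terminal parts differ: some members recruit the corepressor CtBP, others the SIN3 corepressor, and others activate transcription. Klf2 and Klf4 are known for keeping endothelium quiescent under laminar flow and are induced there through the kinase ERK5 and MEF2 factors. Several members are early-response genes, Klf9 and Klf15 are known glucocorticoid receptor targets, and in neurons Klf4 and Klf9 restrain axon growth whereas Klf6 and Klf7 promote it.

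Promoters of 8 of the 10 genes were found in the RefSeq promoter table (build GRCm38.p6), and the 250 bases before each start were searched on both strands. The GC box GGGCGG, itself an element that these factors bind, was found in 7 of the 8, against 32.7% of all 32851 promoters, and CACCC in 6 of 8, against 52%. These 8 promoters held 59.2 to 78.4% G and C, and the median of all promoters was 52.4%. The MEF2 consensus was found in Klf2 alone of the 8 and in 2.92% of all promoters. ACGTG, the core of hypoxia-response and clock E-box elements, lay in 4 of 8, against 16.6%, and TGACG, a cyclic AMP response half-site, in 5 of 8, against 17.8%. AGAACA, a glucocorticoid receptor half-site, and the CArG box of serum response factor were found in 0 of 8, against 16.1% and 1.47%. A match describes the letters only. The stretches below are shown because Klf2 and Klf15 are members with no overlap between the groups and Klf9 was the most abundant. Capitals mark the MEF2 consensus in Klf2 at chr8:72318902-72319001, ACGTG on either strand in Klf15 at chr6:90462336-90462435, and overlapping TGACG and ACGTG in Klf9 at chr19:23141126-23141195, each on the plus strand and upstream of the start.
Klf2: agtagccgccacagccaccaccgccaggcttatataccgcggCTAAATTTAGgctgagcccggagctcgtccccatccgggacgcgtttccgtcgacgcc
Klf15: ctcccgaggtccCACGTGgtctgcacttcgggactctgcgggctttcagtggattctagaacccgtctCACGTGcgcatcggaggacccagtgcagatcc
Klf9: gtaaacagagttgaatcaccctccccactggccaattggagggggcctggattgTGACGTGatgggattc

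None of the 10 genes passed the test for a difference between PS and control brains (limma, Benjamini-Hochberg adjusted p under 0.05), which 20 of 12229 genes did, 0.164%, all of them lower in PS. The lowest adjusted p among the members was 0.241, that of Klf2. In 3 genes, Klf2, Klf10 and Klf15, all PS values lay below all control values. Over all tested genes 6.33% showed that separation in that direction (11.3% in either), and no member showed the opposite one, seen in 4.93%. At an unadjusted p under 0.05, 2 members were lower, Klf2 and Klf10, where 3.29% of tested genes were, and none was higher, where 2.66% were (5.94% in either direction). By sign, 8 members were lower in PS and 2 higher, with a median log2 fold change of -0.12, against 0.003 over all tested genes. Every fold change is given as PS relative to control in log2(FPKM + 1) units, a scale on which genes of low level move less than their FPKM does. The members were picked with earlier results of these data known, so these counts describe them and do not test them as a set.

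1 library stood apart in these genes. The second control replicate held the highest value in 8 of the 10 genes, and all 10 lay above their 6-library mean there, with a median deviation of 0.17 on the log2 scale. The median deviation of all tested genes in that library was -0.01. That library also stood apart on the first principal component of all tested genes, which held 42.4% of the variance. Without it 6 members were lower and 4 higher, and the median log2 fold change was -0.06. None was called (0.155% of tested genes), 2 had an unadjusted p under 0.05 (6.32%), and 3 were lower with separate groups, when 12.9% of tested genes were (22.5% in either direction). The third control replicate held the lowest value of 4 members. All 10 genes had a smaller SD in PS than in control, which was true of 68.2% of tested genes. Without control replicate 2 this held for 8 of the 10 and for 51.4% of tested genes. The control SD then came from 2 libraries and the PS SD from 3, so these shares cannot be set against those above.

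**Figure D1:**
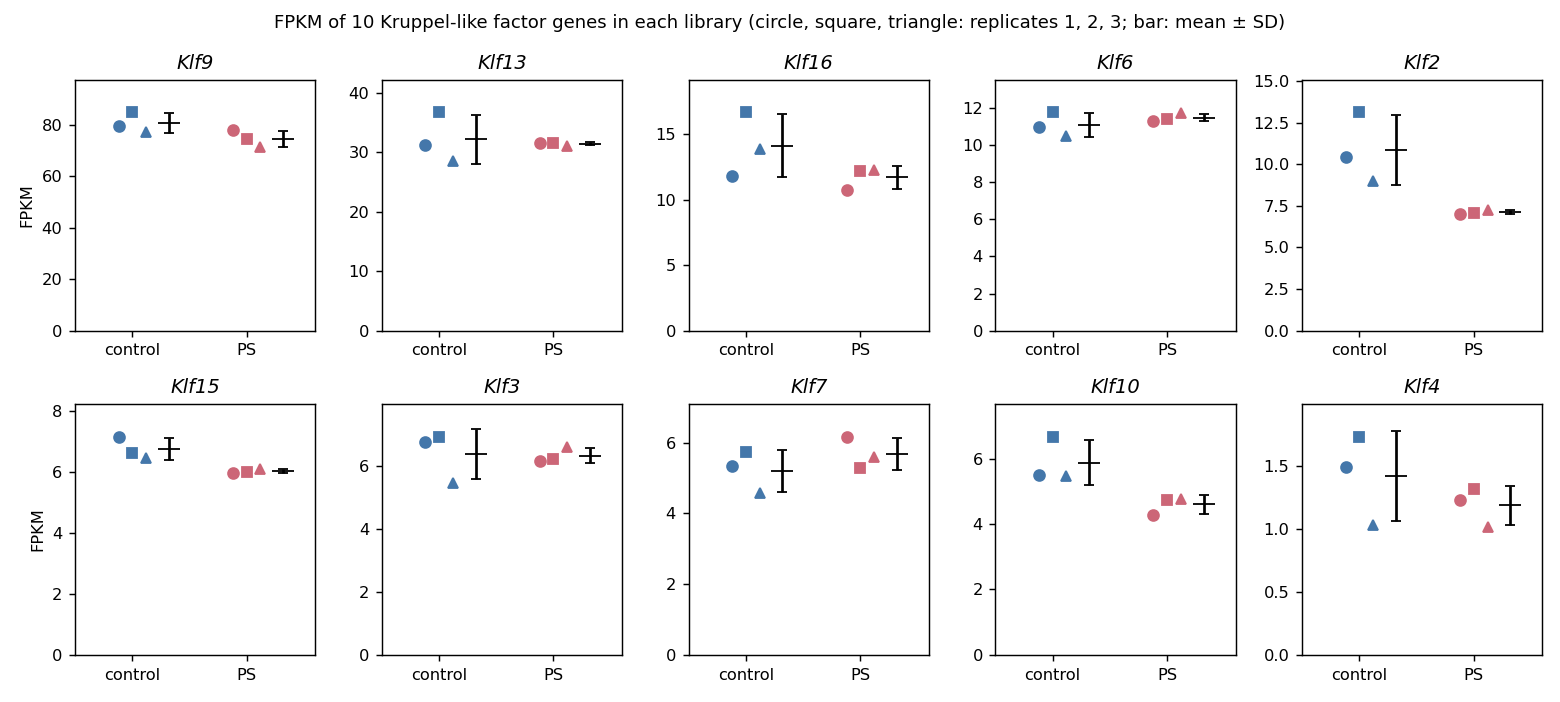
FPKM of each of the 10 genes (vertical axes, each from 0) in the 3 control and 3 PS libraries, with circles, squares and triangles for replicates 1, 2 and 3 and a black bar for the mean ± SD. The control square is the highest point in 8 panels, and the groups are separate in Klf2, Klf10 and Klf15 only.

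Levels spanned a wide range. Klf9 was the most abundant member, at 71.5 to 84.8 FPKM over the 6 libraries, followed by Klf13 at 28.5 to 36.7, and neither range met the next. Klf16 (mean 12.9 FPKM), Klf6 (11.3), Klf2 (8.98), Klf15 (6.39), Klf3 (6.34), Klf7 (5.45) and Klf10 (5.24) followed, each with a range over the 6 libraries that overlapped its neighbour's. Within libraries Klf2 was above Klf15 in 6 of 6, Klf16 above Klf6, Klf6 above Klf2 and Klf3 above Klf7 in 5, Klf7 above Klf10 in 3 and Klf15 above Klf3 in 2. Klf4 was lowest at 1.02 to 1.73 FPKM, below Klf10 in every library. A level per kilobase depends on the gene model. The length behind the deposited values was 2.93 times the exon length in the GENCODE M21 annotation for Klf15 and 2.48 times for Klf4, and 0.468 times for Klf3, whereas the other 7 were within 0.849 to 1.01 times. The places of Klf15, Klf4 and Klf3 in the order therefore depend on the annotation, and so, through the added 1, does the log2 fold change of a low gene such as Klf4 (-0.14, and -0.22 when 0.1 was added in place of 1). In M21, Klf3, Klf7 and Klf13 overlap genes on the opposite strand, and no source used here says whether the counting used strand. Klf3, Klf7 and Klf9 also overlap C230096K16Rik, Mir6899 and Mir1192, in that order, on their own strand. Reads of those genes and of Klf3, Klf7, Klf9 and Klf13 may thus be mixed.

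Klf2, a guardian of endothelial quiescence that is also expressed in lymphocytes and microglia, showed the widest difference. It stood at 10.4, 13.1 and 8.98 FPKM in control replicates 1, 2 and 3, and at 7.03, 7.07 and 7.27 FPKM in PS replicates 1, 2 and 3. The 3 PS libraries were nearly equal and all lay under the lowest control. The control mean was 10.8 ± 2.1 FPKM and the PS mean 7.12 ± 0.126 (SD, n = 3 each), 34.3% lower. The log2 fold change was -0.53 (SE 0.113, 95% interval from -0.78 to -0.27, limma unadjusted p = 0.00117, adjusted p = 0.241), and 0.474% of tested genes had an unadjusted p as low. Its values came from 511 to 935 reads a library, and counting alone gives an error of 4.42% at the lowest of these, so the PS values differed by less than counting error would give. Klf2 was not called with the replicate number as a block (adjusted p = 0.0609) or by limma-voom on recovered reads (adjusted p = 0.257), fits that called 0.393% and 0.237% of all genes. It was called with sample weights (log2 fold change -0.49, adjusted p = 0.00324), a fit that called 5.17% of all genes, and without control replicate 3 (-0.64, adjusted p = 0.0318). Without control replicate 2 the log2 fold change was -0.39 (adjusted p = 0.163).

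Klf4, which shares the endothelial role of Klf2 and is also known from smooth muscle and stem cells, did not separate the groups. Its values were 1.49, 1.73 and 1.03 FPKM in control and 1.22, 1.32 and 1.02 in PS replicates 1 to 3. The third control library lay within the PS range, and the other 2 controls were above all PS values. The log2 fold change was -0.14 (95% interval from -0.40 to 0.13, adjusted p = 0.969), from 307 to 512 reads a library. It ran from -0.26 without control replicate 3 to -0.04 without control replicate 2.

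Klf10, a repressor induced early by TGF-beta, was the second member with separate groups. It stood at 5.51, 6.67 and 5.46 FPKM in control and at 4.27, 4.75 and 4.77 FPKM in PS. The highest PS value was under the lowest control, and the gap between them was smaller than the gap between control replicates 1 and 2. Means were 5.88 ± 0.682 and 4.6 ± 0.281 FPKM, a log2 fold change of -0.29 (SE 0.085, 95% interval from -0.49 to -0.10, unadjusted p = 0.00728, adjusted p = 0.542 by limma). Over the 16 alternatives its adjusted p ran from 0.0513, with sample weights, to nearly 1. Klf6, an early-response member that promotes axon growth, was flat. It stood at 11.0, 11.8 and 10.5 FPKM in control and at 11.3, 11.4 and 11.7 in PS, where all 3 values lay inside the control range (log2 fold change 0.05, adjusted p = 0.979, 95% interval from -0.09 to 0.19).

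**Figure D2:**
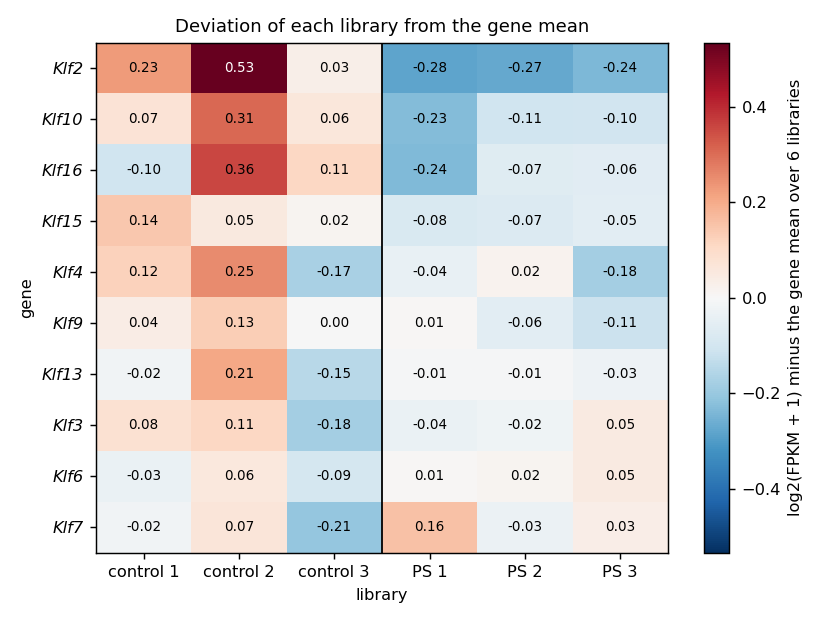
Deviation of log2(FPKM + 1) in each library (columns) from the gene's mean over the 6 libraries, for the 10 genes (rows, ordered by log2 fold change); red is above and blue below the mean. Control 2 is above the mean in all 10 rows and reaches 0.53 in Klf2, and the 3 PS columns are below it in Klf2, Klf10, Klf16, Klf15 and Klf13.

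The glucocorticoid-responsive pair showed small differences. Klf15, a regulator of amino acid and glucose metabolism that is known from astrocytes in brain, stood at 7.15, 6.64 and 6.46 FPKM in control and at 5.96, 6.01 and 6.1 FPKM in PS. The groups were separate, and unlike most members Klf15 was highest in the first control library. Its means were 6.75 ± 0.362 and 6.02 ± 0.0711 FPKM, 10.7% lower in PS (log2 fold change -0.14, 95% interval from -0.28 to 0.004, unadjusted p = 0.0547, adjusted p = 0.842 by limma). With sample weights it was called, at -0.20 (adjusted p = 0.0408). Klf9, which is induced by glucocorticoid and thyroid hormone and rises as neurons mature, stood at 79.7, 84.8 and 77.2 FPKM in control and at 77.8, 74.4 and 71.5 in PS. Only PS replicate 1 reached into the control range, above control replicate 3. Its log2 fold change was -0.11 (95% interval from -0.25 to 0.03, adjusted p = 0.886). With 12816 to 14913 reads a library its counting error was at most 0.883%, well under the spread between the replicates.

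Klf13 and Klf16, like Klf9 and Klf10, are known to bind the SIN3 corepressor. Klf16 stood at 11.8, 16.7 and 13.9 FPKM in control and at 10.7, 12.2 and 12.2 in PS. Control replicate 1 lay inside the PS range, and control replicate 2 far above it. The log2 fold change was -0.24 (95% interval from -0.49 to 0.01, unadjusted p = 0.058, adjusted p = 0.844), and it was -0.12 without control replicate 2 and -0.04 with sample weights. Klf13, known for its role in lymphocytes and heart, stood at 31.2, 36.7 and 28.5 FPKM in control and at 31.6, 31.5 and 31.1 in PS. All PS values lay inside the control range, close to its middle value, and its log2 fold change of -0.03 (95% interval from -0.22 to 0.17, adjusted p = 0.995) turned to 0.07 without control replicate 2.

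The remaining members were Klf3, a CtBP-dependent repressor, and Klf7, a neuronal factor that promotes axon growth. Klf3 stood at 6.75, 6.91 and 5.46 FPKM in control and at 6.15, 6.22 and 6.58 in PS, with all PS values inside the control range. Its log2 fold change was -0.01 (95% interval from -0.20 to 0.19, adjusted p = 0.997), and the sign turned in 4 of the 16 alternatives. Klf7 had the highest log2 fold change of the 10, 0.11 (95% interval from -0.09 to 0.31, adjusted p = 0.962). It stood at 5.34, 5.73 and 4.57 FPKM in control and at 6.17, 5.29 and 5.59 in PS, with PS replicate 1 above every control. Of the neurite regulators, the growth-promoting Klf6 and Klf7 had positive signs and the growth-restraining Klf4 and Klf9 negative ones. Each of these intervals included 0, none of these genes was called, and 8 of the 10 members had a negative sign. The difference between the pairs was not tested.

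**Figure D3:**
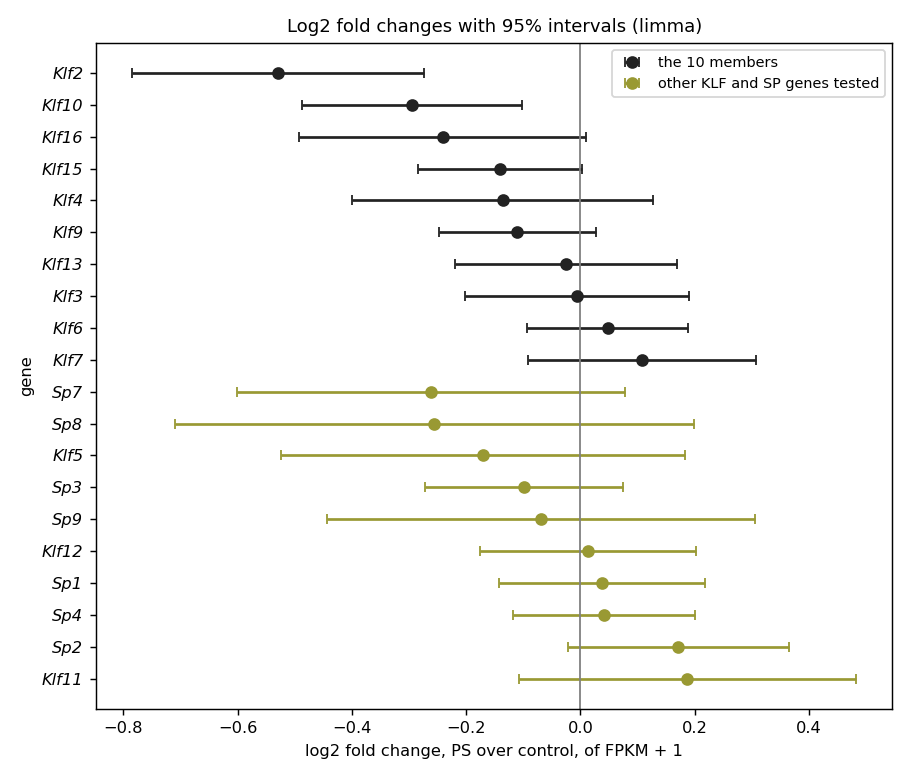
Log2 fold change of FPKM + 1, PS over control, with its 95% interval from limma (horizontal axis), for the 10 members (black) and the 10 other family genes tested (olive). Intervals of Klf2 and Klf10 lie below 0, and all others include it.

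The other genes of the KLF and SP family number 16, of which 10 were expressed enough to be tested. They had 5 lower and 5 higher signs, a median of -0.03, none called, none with an unadjusted p under 0.05 and none with separate groups. Without control replicate 2 the signs were 3 lower and 7 higher, with a median of 0.05. With sample weights Sp2 and Klf11 were called (adjusted p = 0.0393 and 0.0418), in the fit that called 5.17% of all genes. The GC-box activator Sp3 was the most abundant at 13.7 FPKM over the 6 libraries, followed by Sp2 at 4.54, Sp4 at 4.23 and the general activator Sp1 at 3.97. Klf12 stood at 2.92, Sp9 at 2.85, Klf5 at 2.62, Sp8 at 1.74, Klf11 at 1.69 and Sp7 at 1.14 FPKM. The lowest unadjusted p belonged to Sp2, which averaged 4.22 ± 0.544 FPKM in the controls and 4.86 ± 0.218 after PS, a log2 fold change of 0.17 at an adjusted p of 0.857. Sp7, Klf11, Sp3, Sp8 and Klf5 followed, at log2 fold changes of -0.26, 0.19, -0.10, -0.26 and -0.17 and adjusted p from 0.903 to 0.975. Klf8 (0.509 FPKM), Sp5 (0.39) and Sp6 (0.151) were below the filter. The erythroid factor Klf1 came from 2 to 6 reads a library and Klf14 from 4 to 14. Klf17 had 1 read in each of control replicates 2 and 3, the smallest read numbers that fitted. It had 0 in the other 4 libraries, where a count of 0 allows up to 3 reads.

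Genes around the family were taken from lists made for these factors. Corepressors recruited by Kruppel-like factors, 9 in all, gave 5 lower and 4 higher signs with none called. Sap30, a subunit of the SIN3 complex, averaged 7.19 ± 1.41 FPKM in the controls and 4.61 ± 0.596 after PS, with separate groups. Its log2 fold change was -0.54 (adjusted p = 0.343). For the scaffolds Sin3a and Sin3b the log2 fold change was -0.09 and -0.04, each with an adjusted p above 0.9. The ERK5 and MEF2 pathway that induces Klf2 and Klf4, with the CCM complex that restrains it, had none of 10 genes called, 3 lower and 7 higher. Krit1, a CCM protein, stood at 4.79 ± 0.403 and 5.27 ± 0.146 FPKM (log2 fold change 0.12, adjusted p = 0.919) with separate groups, while the transcription factor Mef2d and the kinase ERK5 itself, Mapk7, had -0.09 and 0.08 (adjusted p = 0.975 for both).

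Endothelial genes known as induced or repressed by Klf2 and Klf4 had 6 of 9 tested, 4 lower, 2 higher and none called. As the list mixes induced and repressed genes, its count of signs cannot be set against the sign of Klf2. Tissue factor, F3, averaged 32.5 ± 2.0 FPKM in the controls and 28.4 ± 1.3 after PS, with separate groups (log2 fold change -0.19, adjusted p = 0.709). It is also made by astrocytes. Icam1, a leukocyte adhesion molecule, had -0.31 (adjusted p = 0.844), and Nos3, the endothelial nitric oxide synthase that Klf2 induces, had -0.14 (adjusted p = 0.945). The TGF-beta pathway, which induces Klf10, had 8 of 9 tested genes lower (5 without control replicate 2) and none called. Over all tested genes 48.6% were lower. The pathway had a median log2 fold change of only -0.03, and no gene with an unadjusted p under 0.05 by limma. Its ligand Tgfb2 stood at 1.71 ± 0.0498 and 2.09 ± 0.276 FPKM (log2 fold change 0.19, adjusted p = 0.842), opposite in sign to Klf10, and Tgfb1 and the inhibitor Smad7 had -0.11 and -0.06 (adjusted p = 0.973 and 0.979). Metabolic genes known as Klf15 targets, 6 without Klf15 itself, had 2 lower and 4 higher. Among them Pdk4, which holds back glucose oxidation, stood at 6.64 ± 0.838 and 4.39 ± 0.805 FPKM (log2 fold change -0.51, adjusted p = 0.356, and 0.0155 with the replicate block), and Kcnip2 had 0.13 (adjusted p = 0.973).

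Neurite growth genes and known Klf7 targets had 6 of 8 tested, 3 lower and 3 higher, with none called. Cdkn1a, a cell cycle inhibitor that Klf4 and Klf6 also activate, averaged 48.4 ± 5.73 FPKM in the controls and 30.3 ± 4.02 after PS. Cdkn1a is also counted in the glucocorticoid list below, so the lists are not separate. Its adjusted p was 0.0685, and it was called with the replicate block (0.029) and by limma-voom (0.0434). The adhesion molecule L1cam averaged 20.3 ± 0.0678 and 24.0 ± 1.5 FPKM (log2 fold change 0.23, adjusted p = 0.448). Stmn2, a growth-associated tubulin regulator, had 0.08 (adjusted p = 0.975).

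Called genes were found in both lists that share inducers with the family. These lists were chosen with earlier results of these data known, so their counts describe them and test nothing. Over all tested genes 0.164% were called and 48.6% were lower. Of 14 glucocorticoid receptor and response genes, 13 were lower and 4 were called, Sgk1, Dusp1, Errfi1 and Ddit4, with a median log2 fold change of -0.29. Sgk1, a kinase, had -0.80 (adjusted p = 0.00937), where Klf15 and Klf9 had -0.14 and -0.11. Of 15 tested activity-induced early genes, 13 were lower and Fos was called (-1.37, adjusted p = 0.0334), with a median of -0.59 (-0.40 without control replicate 2). With the replicate block 3 were called. Leaving out control replicate 2 ended the call of Fos, at -1.29 (adjusted p = 0.0796). The early genes Nr4a1 and Junb had -1.01 and -0.78 (adjusted p = 0.0626 and 0.0697, and 0.0107 for both with the block). Beside these early genes, Klf2 and Klf10 had -0.53 and -0.29, and Klf6 had the opposite sign. Summed FPKM of the early genes was 295, 365 and 243 in the controls and 183, 201 and 217 in PS, highest in the second control library, as most of the members were.

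In whole brain, fewer cells of a type and less RNA per cell cannot be told apart, so markers are given beside the members. Markers of the labelled tissue were present, with summed neuronal markers at 1911.5 to 2068.8 FPKM and summed astrocyte markers at 821 to 947 FPKM. Endothelial markers summed to 184 to 216 FPKM in control and 153 to 163 in PS, without overlap, and like Klf2 were highest in control replicate 2. A large part of these sums was Slc2a1, at 80.2 to 101 FPKM in control and 62.1 to 71.8 in PS. Without Slc2a1 the sums of the groups overlapped. Of the 14 endothelial markers 11 were lower, with a median log2 fold change of -0.11 (8 and -0.09 without control replicate 2). Vwf was called (-0.74, adjusted p = 0.0101). The other leading ones were Slc2a1 (-0.46, adjusted p = 0.199) and Ly6a (-0.30, adjusted p = 0.555). Red-cell markers summed to 128 to 197 FPKM in control and 57.0 to 99.6 in PS, with all 5 tested lower, Hbb-bt at -1.52 (adjusted p = 0.0626), Hba-a1 at -1.15 (adjusted p = 0.0685) and Alas2 at -0.89 (adjusted p = 0.0751), none called. The replicate block called 4 of the 5 (adjusted p of Hbb-bt 0.0155), and limma-voom called Hbb-bt (adjusted p = 0.0409). Globin copies are nearly identical, so their split is uncertain. Summed blood leukocyte markers overlapped, at 4.8 to 49.0 FPKM in control and 5.43 to 27.2 in PS, and S100a8 and S100a9 had -0.52 and -0.33 (adjusted p = 0.979 and 0.992). The part of these cells in the values of Klf2, Klf4 and Klf10 was not tested.

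Summed mural cell, microglial, astrocyte, neuronal and oligodendrocyte markers overlapped between the groups. Of 7 mural markers 4 were higher and 3 lower, and those with the lowest p were Cspg4 (0.28, adjusted p = 0.655), Pdgfrb (0.18, adjusted p = 0.842) and Rgs5 (-0.13, adjusted p = 0.884). Microglia, which also express Klf2, had 4 of 7 higher, with Cx3cr1 at 0.38 (adjusted p = 0.22), Trem2 at 0.30 (adjusted p = 0.752) and Aif1 at -0.24 (adjusted p = 0.751). Astrocytes, which express Klf15, had 6 of 8 higher, with Aldh1l1 at 0.19 (adjusted p = 0.817), Gja1 at 0.08 (adjusted p = 0.955) and Gjb6 at -0.16 (adjusted p = 0.868). Neurons had 6 of 8 higher (5 without control replicate 2), led by Slc17a6, Gad2 and Rbfox3 (0.21, 0.01 and 0.01, adjusted p = 0.978 for the first and 0.996 for the others). Slc17a6 was lowest in control replicate 2, at 15.8 FPKM, and its log2 fold change without that library was -0.11. Oligodendrocyte markers were higher in 8 of 8 with a median of 0.27 (0.11 without control replicate 2), led by Ugt8a, Cnp and Mag (0.39, 0.31 and 0.31, adjusted p = 0.224, 0.801 and 0.845), and precursor markers in 5 of 6, led by Sox10, Enpp6 and Gpr17 (0.34, 0.41 and 0.33, adjusted p = 0.0828, 0.378 and 0.565). The summed precursor markers did not overlap, at 84.8 to 102 FPKM in control and 109 to 113 in PS.

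**Figure D4:**
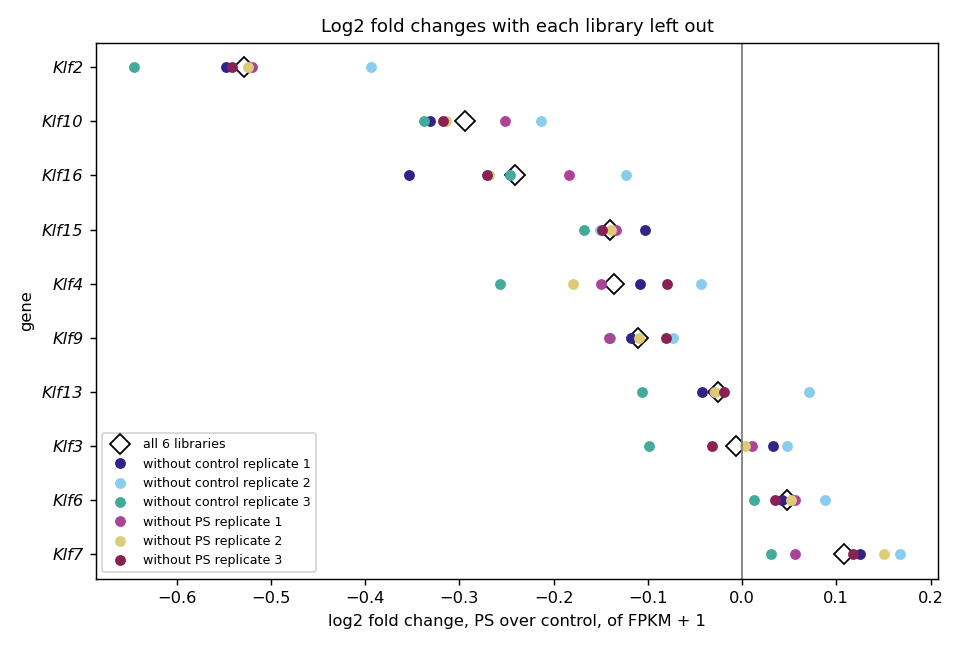
Log2 fold change of FPKM + 1, PS over control (horizontal axis), of each of the 10 genes with all 6 libraries (open diamonds) and with each library left out in turn (coloured points). Leaving out control replicate 2 gives the most positive value in 9 of the 10 rows, and Klf2 stays between -0.64 and -0.39 in all of them.

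Profiles most like those of the 3 members with the lowest unadjusted p were sought among all tested genes, by the root mean square difference between log2(FPKM + 1) profiles over the 6 libraries, each centred on its own mean. Nearest to Klf2 were the prostaglandin synthase Ptgs2 (0.053), Sap30 (0.083) and the glucose transporter Slc2a1 (0.086). Ptgs2 stood at 2.68, 3.34 and 2.19 FPKM in control and 1.7, 1.57 and 1.84 in PS. Its controls had the order of those of Klf2, a likeness that the way of choosing favours. Among the nearest to Klf10 were the somatostatin receptor Sstr2 (0.031) and the glucocorticoid-induced chaperone Fkbp5 (0.033), and nearest to Klf15 were Max, Etv3 and Ugdh (0.013, 0.014 and 0.015). None of these 8 genes was called, with adjusted p from 0.199 to 0.842. Matching genes to members that were not called makes this likely too.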

How the data were processed

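The FPKM values came as 1 deposited table for each library, made by the authors. Fastp, HISAT2, HTSeq, R 3.2.0 and build GRCm39 are named per the submitters' processing notes, without settings. The 6 libraries, 3 control and 3 PS, were grouped by their labels. FPKM values moved in whole steps, which gave read numbers for 100% of 26556 genes above 0, within 0.02 reads, and totals of 39239183 to 40335590 reads. The shortest gene length that gave whole reads was taken, so read numbers are the smallest that fitted. For a gene above 0 in few libraries some length was bound to fit, so the 100% shows nothing about such genes. Libraries of a group differed by more than sampling noise (chi-square per degree of freedom 8.55 to 31.6).

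The filter kept genes whose mean was 1 FPKM or more (12229 tested, 15149 removed). log2(FPKM + 1) was compared with limma 3.58.1 in R 4.3.3, by group only, with a variance trend, two-sided, and p-values were adjusted by Benjamini-Hochberg over all tested genes. For 3 against 3 libraries the smallest two-sided p of an exact permutation test is 0.1, so none was used. The fit was tested on simulated data. The 10 members and the lists were chosen with earlier results of these data known. Named were all members, the family by level and up to 6 by unadjusted p, up to 3 genes per list by unadjusted p, and the called genes of a list, the latter after their values were seen. Likeness was measured against genes other than predicted ones and clone names, and 1 gene it named is not reported here.

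The labels do not say that equal replicate numbers link libraries. For replicates 1, 2 and 3 the correlation of control and PS deviations from their group means was 0.181, 0.185 and 0.161, each above 0.1. Between unequal numbers it was -0.217 to 0.0253. With 3 libraries a group these values are not independent, so they cannot show that equal numbers link libraries. A replicate block was fitted beside the main model as an alternative. Other alternatives were pseudocounts, filters, rescaling, variance trend, sample weights, each library left out, and limma-voom on recovered reads. Promoter sequences are from RefSeq, and the build differs from that of the files.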

Additional observations from a re-analysis of the deposited data

How the results depend on the processing

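With sample weights 2 members were called (Klf2 and Klf15), in a fit that called 5.17% of all genes. Without control replicate 3 Klf2 was called, where 66 of 12229 genes were. No other alternative called a member, so the count ran from 0 to 1 with libraries left out. The count at an unadjusted p under 0.05 was 2, where 5.94% of tested genes passed. It was 3 with no filter (5.46% of genes), by limma-voom (6.13%) and under the replicate block (7.76%), 5 under sample weights (25.7%), and 2 to 4 with libraries left out (4 without control replicate 3, where 14.0% passed). Members lower with separate groups, 3 with all libraries, numbered 3 to 6 with libraries left out. The share of all tested genes rose too, from 6.33% to between 9.33 and 16.2%, the latter without control replicate 3, which gave the 6. With libraries left out the log2 fold change of Klf3 ran from -0.099 to 0.047 and that of Klf13 from -0.106 to 0.071. Klf3 turned to 0.03 without control replicate 1, 0.047 without control replicate 2, 0.01 without PS replicate 1 and 0.003 without PS replicate 2. Klf13 turned to 0.071 without control replicate 2 and 0.0018 with sample weights. The other 8 kept their sign in each alternative run. Klf4 has no value at a mean FPKM of at least 5. The cause of these differences was not tested.

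Over all genes, 20 were called (20 lower, 0 higher). The count was 48 with the replicate block (45 lower, 3 higher), 632 with sample weights (335 lower, 297 higher), 1 with no filter (0 lower, 1 higher), 9 with a mean FPKM of at least 5 (9 lower), 29 by limma-voom, and 44 when an unadjusted p under 0.05 and a 1.5-fold difference were asked for instead. With libraries left out it ran from 0 to 66 (0 to 49 lower, 0 to 17 higher), 0 without PS replicate 2, 2 without control replicate 1 or PS replicate 1, and 66 without control replicate 3. The block changed no call of a member. Counting error at the fewest reads was 5.71% for Klf4 and 4.42% for Klf2.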
